A study of Mus musculus with 18 samples.

Results

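The 10 genes described here mark the earliest blood and vessel cells of the mouse embryo. Hba-x, Hbb-y and Hbb-bh1 encode the globins of primitive red cells, Gata1, Klf1 and Tal1 encode transcription factors of blood, and Kdr, Pecam1, Cdh5 and Tek encode surface proteins of endothelium. They were taken by symbol from the table of expression values. Where a symbol has several probe sets, the brightest on average would stand for it, but each of the 10 had 1 probe set. They are 10 of the 22180 genes that had a probe set naming 1 gene.

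RNA came from mouse embryonic stem cells of the strain F1 (C57Bl6N x 129Sv), either Pax7+/+ or Pax7-/-, the latter lacking a working Pax7 gene, and was hybridised to Affymetrix arrays. Cells at day 0 were undifferentiated and were grown with LIF, the cytokine that holds mouse stem cells undifferentiated. Cells at day 7 were embryoid bodies, which are floating aggregates, and cells at day 21 were outgrowths of embryoid bodies. The later stages were grown in medium without LIF to which RA and ITS had been added, so retinoic acid was common to both genotypes from then on. Each genotype and day had 3 arrays labelled as biological replicates. How many clones of each genotype they came from is not given in the sources used here, and p-values measure only the spread between these samples. The comparison asks whether loss of Pax7, a paired box transcription factor of muscle stem cells and neural crest, goes with a different course of differentiation.

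In the embryo, primitive red cells and the vessels that carry them arise together in the blood islands of the yolk sac, from mesoderm that carries the VEGF receptor Kdr. Tal1 and Gata1 start the blood programme there, and Gata1 and Klf1 bind and switch on the embryonic globin genes. Endothelial cells then seal to one another through Cdh5 (VE-cadherin) and Pecam1, and answer angiopoietins through Tek. Embryoid bodies can form blood islands and vessel sheets, so these genes are common readouts of how such a culture differentiates. Pecam1 is also on the surface of undifferentiated mouse stem cells, where it serves as a marker of that state.

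The regulatory sequences just before the start of the embryonic alpha-like gene Hba-x and of the embryonic beta-like gene Hbb-y are shown, the 2 globins with a promoter entry. Whether they bear on the readings below was not tested. Each line is the 250 bases before the RefSeq start, 5′ to 3′ on the strand of the gene, from the assembly GRCm38.p6. Capitals mark the GATA words (AGATAA with its close form AGATAG, and further the word TGATAA with its close form TGATAG), the letters CACCC and also the letters CCAAT, read on either strand, and no marked words overlap.
Hba-x: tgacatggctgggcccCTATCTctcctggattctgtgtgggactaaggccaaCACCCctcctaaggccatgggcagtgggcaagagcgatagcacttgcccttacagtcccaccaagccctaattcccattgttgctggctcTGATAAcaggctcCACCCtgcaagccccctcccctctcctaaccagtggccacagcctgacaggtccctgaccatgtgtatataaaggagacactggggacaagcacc
Hbb-y: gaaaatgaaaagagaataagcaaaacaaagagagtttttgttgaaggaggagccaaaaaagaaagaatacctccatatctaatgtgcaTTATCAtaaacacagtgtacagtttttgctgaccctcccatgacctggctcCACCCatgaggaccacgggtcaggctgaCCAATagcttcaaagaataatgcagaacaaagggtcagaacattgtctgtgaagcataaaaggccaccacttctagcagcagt
The Hba-x window is chr11:32276350-32276599 on the plus strand and the Hbb-y window is chr7:103853208-103853457 on the minus strand. Hba-x held 2 GATA words, beginning 234 and 108 bases before the start, and 2 CACCC words. Hbb-y held 1 GATA word 162 bases before the start, 1 CACCC and 1 CCAAT. Such words are common: of 32851 mouse promoters of the same length, 26.5% held a GATA word, 52.0% CACCC and 33.8% CCAAT. Promoter entries existed for 7 of the 10 genes (8 windows), and the windows of Kdr and Tek held 1 CACCC word each and no GATA word. A match of letters is a description of the sequence and was not tested as a binding site.

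The arrays fell into a narrow and a wide set by the spread of their values. The SD of an array's values was 1.37 to 1.45 log2 on the 10 narrow arrays and 1.79 to 1.85 log2 on the 8 wide ones, and all 6 groups held arrays of both. The labels do not name these sets. Values are read within their set, apart from ranges given over arrays of both sets, and every test below carries the set as a block. Stem cell markers such as Nanog and Tdgf1 were lower at day 21 than at day 0 in both genotypes, by the tests in 6 of 8 (Pax7+/+) and 7 of 8 (Pax7-/-) markers. Of all genes, 14.6% and 8.97% were called there in either direction. The Pax7 probe set, which may or may not lie in what the knockout removed, read 5.61 to 6.37 log2 on narrow and 4.68 to 5.53 log2 on wide arrays, with overlapping genotypes, and checks no label. Of the wide arrays, Pax7+/+ day 21 replicate 2 stood apart for the genes described here, and results that rest on it are given with and without it.

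**Figure D1:**
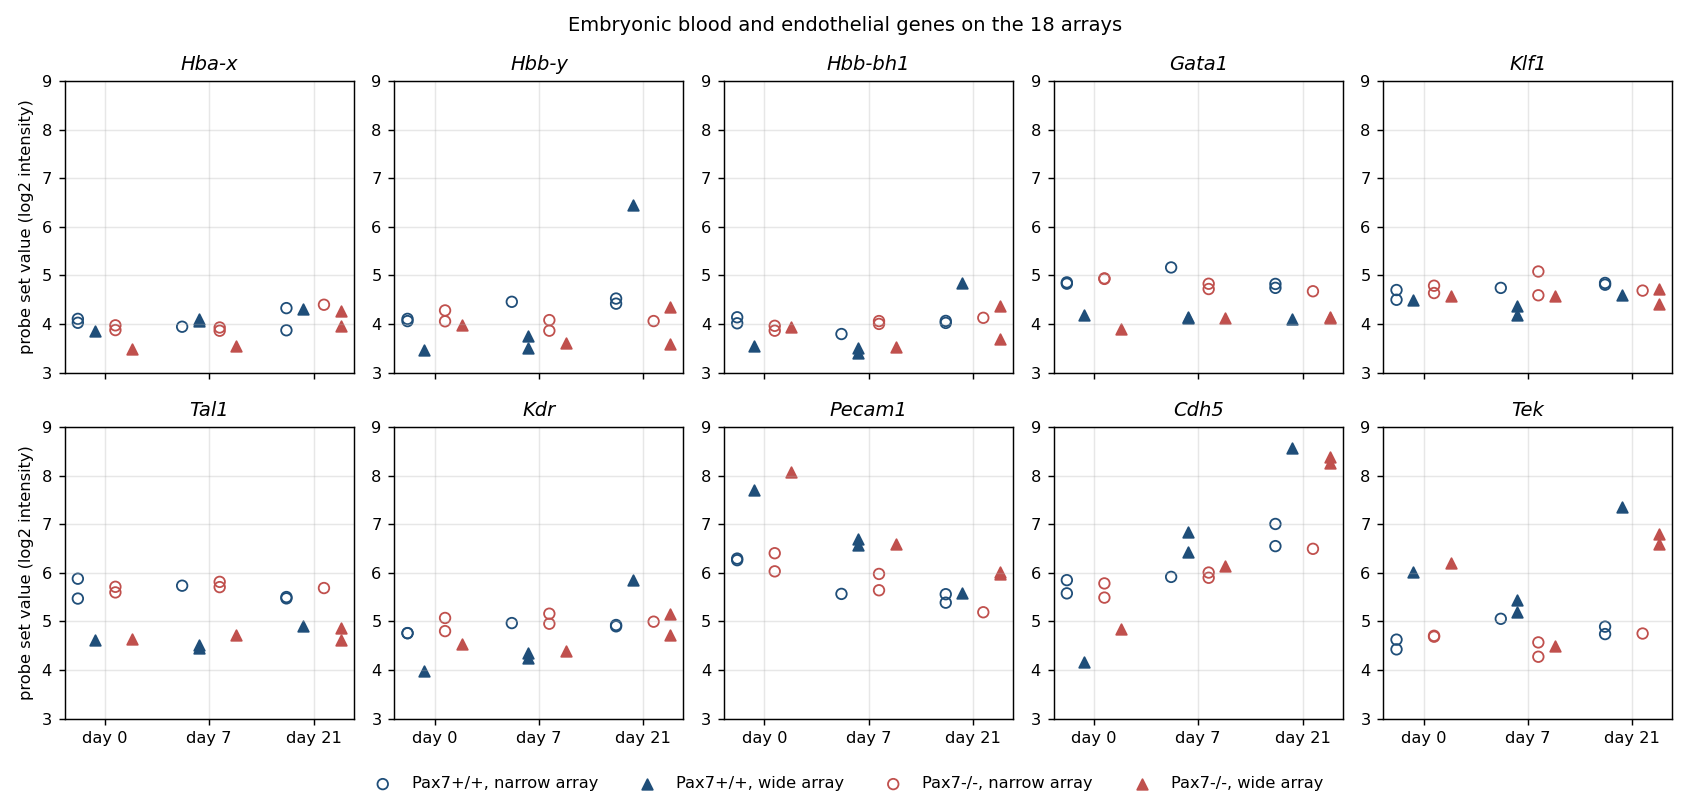
Log2 intensity of the probe set of each of the 10 genes (vertical axis) on every array, by day (horizontal axis), with blue for Pax7+/+ and red for Pax7-/-, open circles for narrow and filled triangles for wide arrays. Hbb-y reads 6.44 on 1 wide Pax7+/+ array of day 21 and 3.47 to 4.52 on the other 17, while Cdh5 climbs and Pecam1 falls with time in both genotypes.

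Genes for globins were near the bottom of the intensity range on nearly all arrays, and Hbb-y stood out on 1 array. Hba-x, which encodes the zeta chain of embryonic haemoglobin, read 3.86 to 4.4 log2 on narrow and 3.49 to 4.30 log2 on wide arrays. As a yardstick for dim probe sets, chosen after values had been seen, 1088 olfactory receptor genes (Olfr) were used, since few of them are expected to be active in such cultures. Hba-x lay above 62.2% to 80.0% of them on narrow arrays and above 52.5% to 92.2% on wide arrays, well inside their range. The deposited table holds no detection call, so whether such a gene was expressed was not measured.

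Hbb-y, the epsilon-y chain of primitive red cells, read 4.11, 4.06 and 3.47 log2 in Pax7+/+ stem cells, 4.46, 3.76 and 3.50 in embryoid bodies and 4.42, 6.44 and 4.52 in outgrowths (replicates 1, 2 and 3). In Pax7-/- cells it read 4.06, 3.98 and 4.28 at day 0, 3.86, 3.61 and 4.08 at day 7 and 4.06, 4.35 and 3.58 at day 21. The single high value, 6.44 log2, belongs to replicate 2 of the Pax7+/+ outgrowths. It lay above 99.6% of the olfactory receptor genes, against 65.1% to 93.7% on the other arrays. The other wide arrays read 3.47 to 4.35, so the gap to the next one was 2.09 log2.

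Hbb-bh1, the beta-h1 chain and the most abundant beta-like globin of early primitive red cells, followed in a smaller way. It read 4.14, 4.02 and 3.56 log2 in Pax7+/+ at day 0, 3.79, 3.51 and 3.40 at day 7 and 4.02, 4.84 and 4.06 at day 21. Pax7-/- cells gave 3.86, 3.94 and 3.96, then 4.06, 3.53 and 4.0, then 4.13, 4.37 and 3.68. The highest of these 18 values was again the Pax7+/+ day 21 replicate 2 array, and the other 17 lay between 3.40 and 4.37.

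No globin passed a test in any of the 12 comparisons. Tests were made with limma on all 22180 genes with a Benjamini-Hochberg adjusted p, and a gene passed under 0.05. From day 0 to day 21 Hbb-y came to 1.25 ± 0.41 log2 in Pax7+/+ (SE, n = 3 per group, adjusted p = 0.0516), with 0.39 on narrow and 2.97 on wide arrays. This value passed after quantile normalization (1.03, adjusted p = 0.0436) and after median centring (1.22, adjusted p = 0.0495). Without Pax7+/+ day 21 replicate 2 it was 0.45 (adjusted p = 0.236). In Pax7-/- it was -0.10 ± 0.42 (adjusted p = 0.917). At day 21 Pax7-/- minus Pax7+/+ for Hbb-y came to -1.12 ± 0.42 (adjusted p = 0.157), with -0.41 on narrow and -2.48 on wide arrays, and to -0.20 (adjusted p = 0.758) without that replicate. Hba-x from day 0 to day 21 in Pax7-/- was 0.47 ± 0.15 (adjusted p = 0.0656), nearly alike on narrow (0.47) and wide (0.61) arrays, and it passed in 2 of the 18 fits that each left out 1 array.

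The 3 blood transcription factors passed no test and moved little within each set. Gata1, the zinc finger factor that red cell and platelet precursors need, read 4.67 to 5.16 log2 on narrow arrays and 3.89 to 4.18 log2 on wide arrays. Klf1, which drives adult and embryonic beta-like globin genes in red cell precursors, read 4.50 to 5.08 and 4.19 to 4.73. Tal1, the helix-loop-helix factor without which no blood forms, read 5.47 to 5.88 and 4.46 to 4.91. Their 36 differences over the 12 comparisons lay between -0.31 and 0.24 log2, and 0 passed.

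At no day did the genotypes stand apart in the same direction in both sets for any of these 3 factors. Gata1 on wide arrays read 4.18 at day 0 in Pax7+/+ and 3.89 in Pax7-/-, 4.12 and 4.14 against 4.12 at day 7, and 4.09 against 4.15 and 4.13 at day 21. On the array where Hbb-y was highest, Gata1 read 4.09, and Klf1 read 4.6 against 4.19 to 4.73 on the other wide arrays. Tal1 read 4.91 there, the highest of the 8 wide arrays by 0.05 log2. The Gata1 probe set lay above 78.1% to 93.0% of the olfactory receptor genes over all arrays, so its signal too was close to that of dim probe sets. Klf1 on narrow arrays lay above 83.5% to 91.8% of them, likewise close.

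Cdh5 had the largest difference of the 10 genes from day 0 to day 21 in the fit to both sets. VE-cadherin, its product, is the adhesion protein of endothelial junctions. In Pax7+/+ cells it read 5.85, 5.58 and 4.16 log2 at day 0, 5.92, 6.84 and 6.43 at day 7 and 7.00, 8.57 and 6.55 at day 21. In Pax7-/- cells it read 5.49, 4.85 and 5.78, then 5.90, 6.15 and 6.01, then 6.49, 8.25 and 8.38. Every day 21 value was above every day 0 value of its set, in both genotypes. On wide arrays the steps were steep, from 4.16 and 4.85 through 6.15 to 6.84 and up to 8.25 to 8.57, and on narrow arrays shallow, from 5.49 to 5.85 up to 6.49 to 7.00.

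Cdh5 was higher at day 21 than at day 0 by 2.18 ± 0.53 log2 in Pax7+/+ (adjusted p = 0.0102) and by 2.21 ± 0.54 in Pax7-/- (adjusted p = 0.0189), or 4.53- and 4.63-fold. On narrow arrays the differences were 1.06 and 0.86, and on wide arrays 4.41 and 3.46. It was 1 of 2 of the 10 genes that passed from day 0 to day 21 in each genotype, against 14.6% of all genes in Pax7+/+ and 8.97% in Pax7-/-. The call was lost in Pax7+/+ without day 0 replicate 3 (1.41, adjusted p = 0.0685) and without day 21 replicate 2 (1.61, adjusted p = 0.0757). In Pax7-/- it was lost without day 0 replicate 2 (1.68, adjusted p = 0.202), day 21 replicate 2 (2.01, adjusted p = 0.0782) and day 21 replicate 3 (1.95, adjusted p = 0.0879), all of them wide arrays.

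Pecam1 moved the other way. It encodes CD31, an immunoglobulin family adhesion protein of endothelium, platelets and mouse stem cells. In Pax7+/+ it read 6.29, 6.26 and 7.71 log2 at day 0, 5.57, 6.58 and 6.70 at day 7 and 5.39, 5.59 and 5.56 at day 21. In Pax7-/- it read 6.03, 8.08 and 6.40, then 5.64, 6.60 and 5.98, then 5.19, 5.97 and 6.01. Within each set all day 0 values exceeded all day 21 values.

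Pecam1 fell from day 0 to day 21, with differences of -1.24 ± 0.25 log2 in Pax7+/+ (adjusted p = 0.00262) and -1.45 ± 0.26 in Pax7-/- (adjusted p = 0.00229). These are levels 2.36- and 2.73-fold lower. The differences were -0.80 and -1.03 on narrow and -2.12 and -2.08 on wide arrays. The call held in 18 of 18 fits that each left out 1 array, in both genotypes. At day 7 the values were -0.81 ± 0.26 (adjusted p = 0.0830) and -0.76 ± 0.25 (adjusted p = 0.113). The RNA is of whole cultures, so fewer cells of a type and less RNA per cell cannot be told apart, here and for each gene named.

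**Figure D2:**
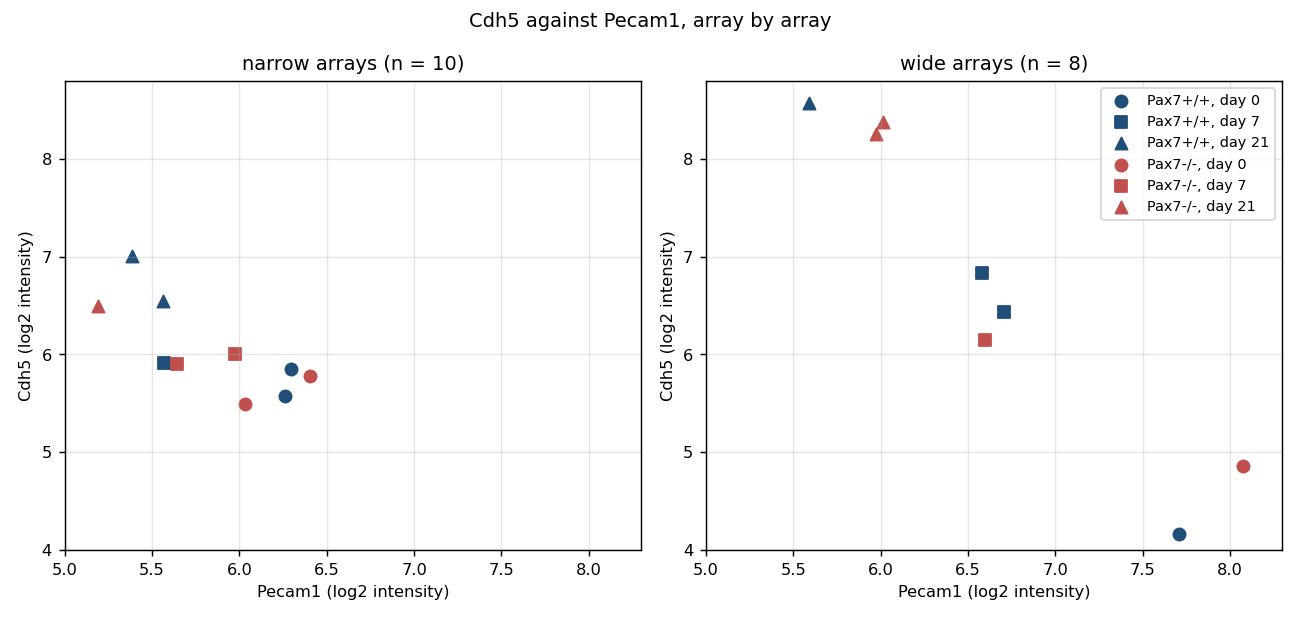
Cdh5 (vertical axis) against Pecam1 (horizontal axis), both as log2 intensity, on the 10 narrow arrays (left) and the 8 wide arrays (right), with circles, squares and triangles for days 0, 7 and 21, blue for Pax7+/+ and red for Pax7-/-. In both sets the day 21 arrays lie at high Cdh5 and low Pecam1, and on wide arrays the 3 days separate along both axes, from Cdh5 at 4.16 and 4.85 on day 0 to 8.25 or more on day 21.

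Kdr and Tek, the receptors, did not pass a test over time in the fit to all 18 arrays. Kdr, the main signalling receptor of VEGF and a mark of the mesoderm that gives blood and vessels, read 4.76, 4.76 and 3.98 log2 in Pax7+/+ at day 0, 4.97, 4.35 and 4.25 at day 7 and 4.93, 5.85 and 4.90 at day 21. In Pax7-/- it read 4.80, 4.54 and 5.07, then 5.16, 4.39 and 4.95, then 4.99, 5.16 and 4.72. On narrow arrays all groups lay between 4.76 and 5.16, above 87.7% to 92.6% of the olfactory receptor genes, so close to dim probe sets. The value of 5.85 was again Pax7+/+ day 21 replicate 2, and the next wide array read 5.16. Kdr from day 0 to day 21 in Pax7+/+ came to 0.73 ± 0.27 (adjusted p = 0.0837), with 0.15 on narrow and 1.87 on wide arrays, and to 0.24 (adjusted p = 0.490) without that array. Kdr passed without replicate 1 of the same group (0.93, adjusted p = 0.0445) and without replicate 3 (0.94, adjusted p = 0.0400).

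Tek, the angiopoietin receptor of endothelium, gave a course that depended on the set. It read 4.62, 4.42 and 6.01 log2 in Pax7+/+ at day 0, 5.05, 5.20 and 5.45 at day 7 and 4.89, 7.36 and 4.74 at day 21. In Pax7-/- it read 4.70, 6.19 and 4.69, then 4.57, 4.50 and 4.27, then 4.75, 6.60 and 6.80. On narrow arrays all values lay between 4.27 and 5.05, above 77.8% to 92.1% of the olfactory receptor genes, so close to dim probe sets. Day 21 there (4.74 to 4.89) lay just above day 0 (4.42 to 4.70), and day 7 (4.27 to 5.05) spanned both. On wide arrays day 0 (6.01 and 6.19) lay above day 7 (4.50 to 5.45), and day 21 (6.60 to 7.36) above both. From day 0 to day 21 Tek came to 0.64 ± 0.38 in Pax7+/+ (adjusted p = 0.295) and to 0.42 ± 0.38 in Pax7-/- (adjusted p = 0.558). The Pax7+/+ value was 0.15 (adjusted p = 0.874) without day 21 replicate 2.

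**Figure D3:**
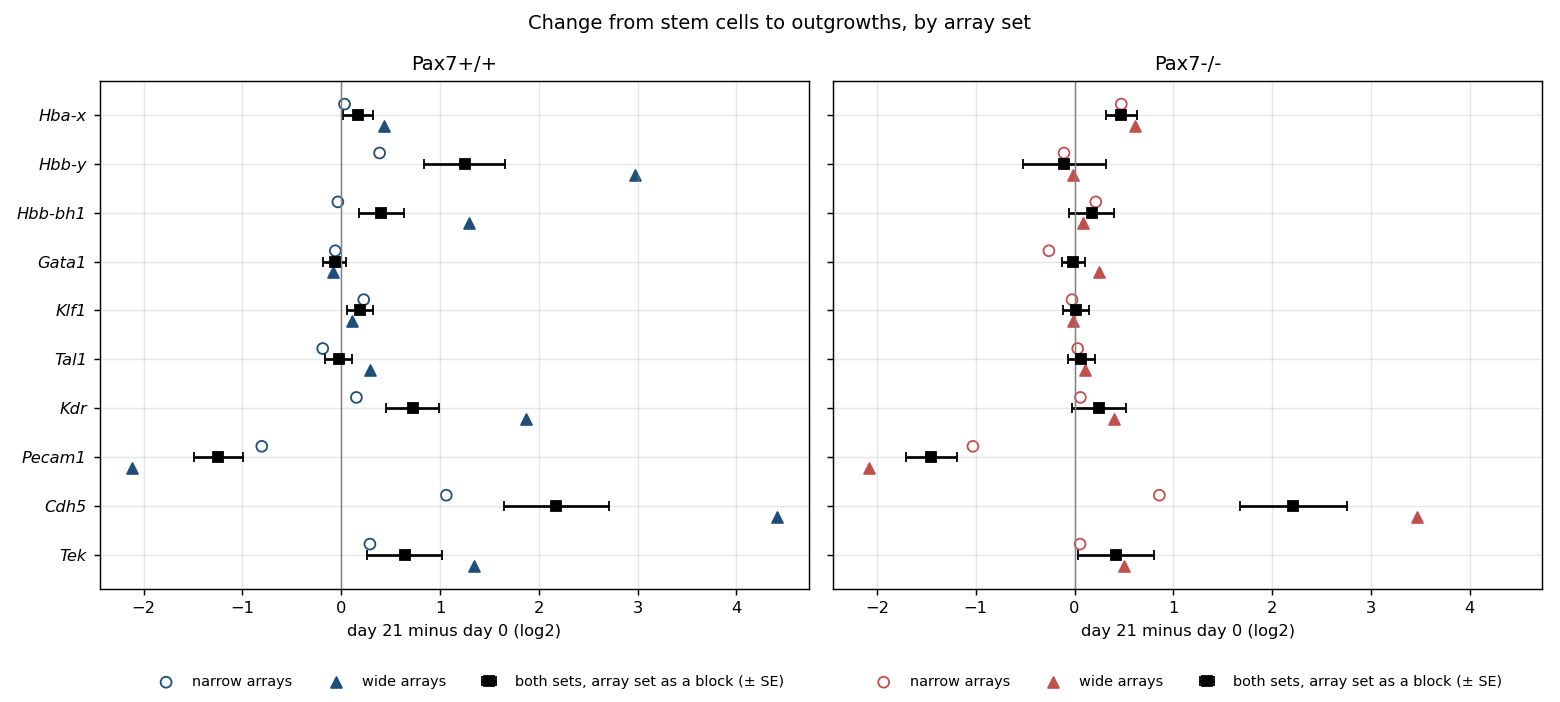
Difference of group means, day 21 minus day 0 in log2 (horizontal axis), for the 10 genes in Pax7+/+ (left) and Pax7-/- (right), with black squares and bars for the fit to both sets ± SE, open circles for narrow and triangles for wide arrays. Cdh5 lies to the right at 2.18 and 2.21 and Pecam1 to the left at -1.24 and -1.45, and for Cdh5, Hbb-y and Kdr in Pax7+/+ the narrow and wide values lie far apart.

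Whether a change over time differed between narrow and wide arrays was tested with set-by-day terms, in a fit added after the values had been seen. From day 0 to day 21, 4 of the 10 genes passed, against 12.3% of all genes. Cdh5 changed by 2.98 ± 0.26 log2 more on wide than on narrow arrays (adjusted p = 2.22e-06), Kdr by 1.03 ± 0.26 (adjusted p = 0.0141) and Tek by 0.75 ± 0.20 (adjusted p = 0.0212). Pecam1 changed by -1.18 ± 0.23 (adjusted p = 0.00261). The narrow readings of Kdr and Tek that enter here were close to those of dim probe sets. After quantile normalization, which gives all arrays one distribution, the difference stayed past the threshold for Cdh5 (1.5 ± 0.29, adjusted p = 0.0101) and not for Pecam1 (-0.03, adjusted p = 0.981), Kdr (0.72, adjusted p = 0.118) or Tek (0.48, adjusted p = 0.173). Without Pax7+/+ day 21 replicate 2, Kdr (0.53, adjusted p = 0.225), Tek (0.45, adjusted p = 0.266) and Pecam1 (-0.84, adjusted p = 0.0525) did not pass. Without Pax7+/+ day 0 replicate 3 Kdr (0.84, adjusted p = 0.0906) and Tek (0.75, adjusted p = 0.0616) did not pass, nor did Tek without Pax7-/- day 0 replicate 2 (0.76, adjusted p = 0.0816). Hbb-y and Hbb-bh1 passed without Pax7-/- day 21 replicate 1 (2.37, adjusted p = 1.25e-04, and 1.05, adjusted p = 0.0210) or replicate 3 (1.65, adjusted p = 0.00615, and 0.81, adjusted p = 0.0159). They passed in the step from day 7 to day 21 as well without either of these arrays.

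From day 0 to day 7, 2 of the 10 genes differed between the sets, against 5.29% of all genes: Cdh5 by 1.62 ± 0.26 (adjusted p = 0.00121) and Tek by -1.32 ± 0.20 (adjusted p = 7.21e-04). From day 7 to day 21, 3 did, against 1.82% of all genes. Tek changed by 2.07 ± 0.20 more on wide arrays (adjusted p = 7.27e-05), Cdh5 by 1.35 ± 0.26 (adjusted p = 0.0127) and Kdr by 1.11 ± 0.26 (adjusted p = 0.0355). After quantile normalization the 2 Tek differences passed (-0.99, adjusted p = 0.0136, and 1.48, adjusted p = 0.00395). Cdh5 did not pass then in the earlier step (0.83, adjusted p = 0.277) or the later one (0.67, adjusted p = 0.548), nor did Kdr in the later one (0.86, adjusted p = 0.205). The later difference in Kdr was also lost in 11 of the 18 fits that each left out 1 array, with 0.61 (adjusted p = 0.330) without Pax7+/+ day 21 replicate 2. That in Cdh5 was lost without the same array (1.37, adjusted p = 0.0615) and without Pax7-/- day 7 replicate 2 (1.09, adjusted p = 0.110). Tek at day 7 lay below days 0 and 21 on wide arrays in both genotypes, and on narrow arrays in Pax7-/- but not in Pax7+/+.

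Between genotypes, 0 of the 10 genes differed at any day. The background was 1.28% of all genes at day 0, 0.627% at day 7 and 4.89% at day 21. At day 0 the 10 differences, Pax7-/- minus Pax7+/+, lay between -0.22 (Hba-x) and 0.30 log2 (Kdr), with a median of 0.09 against 0.01 over all genes. At day 7 they lay between -0.35 (Tek) and 0.26 (Hbb-bh1), with a median of 0.03 against -0.01. At day 21 they lay between -1.12 (Hbb-y) and 0.21 (Cdh5), with a median of -0.06 against -0.01. Standard errors ran from 0.11 for Gata1 to 0.54 for Cdh5.

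The single steps and the interactions gave no call among the 10 genes. From day 0 to day 7, 0 passed in Pax7+/+ (5.69% of all genes) and 0 in Pax7-/- (3.86%). From day 7 to day 21, 0 passed in Pax7+/+ (5.85%) and 0 in Pax7-/- (0.834%). Cdh5 came to 1.08 ± 0.54 and 0.64 ± 0.53 in the earlier step and to 1.10 ± 0.54 and 1.57 ± 0.54 in the later one. A change that differed between the genotypes was found for 0 of 10 genes over the earlier step (0.482% of all genes), 0 over the later step (0.911%) and 0 over the whole course (1.86%). For Cdh5 and Pecam1 from day 0 to day 21 that difference was 0.03 ± 0.76 and -0.21 ± 0.36 log2.

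Pax7+/+ day 21 replicate 2 gave the highest reading among the 8 wide arrays for 7 of the 10 genes (Hba-x, Hbb-y, Hbb-bh1, Tal1, Kdr, Cdh5 and Tek), against 18% of all genes. Hba-x and Tal1 led by only 0.04 and 0.05 log2. The array was singled out by readings of these same genes, so that contrast is a description and no test. Other markers were also high on this array. Of 12 markers of white blood cells and platelets, 10 were highest there, and their mean was 5.66 log2 against 4.47 to 4.59 on the other wide arrays. Fcer1g, the signalling chain of Fc receptors on macrophages and mast cells, read 7.31 there and 4.13 to 4.51 on the other 7. Tyrobp, likewise a signalling chain of myeloid cells, read 5.80 against 3.66 to 4.21. The macrophage growth factor receptor gene Csf1r read 5.95 against 4.34 to 5.0, and Adgre1 (F4/80) 5.45 against 3.44 to 4.06.

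The same array was highest for 9 of 10 endothelial markers, with a mean of 6.06 log2 against 4.83 to 5.68 on the other wide arrays. The remaining marker, Pecam1, was lowest there (5.59 against 5.97 to 8.08). The marker list holds Cdh5, Kdr and Tek, already counted above, and Pecam1, so it is no separate reading. Its markers from outside the 10 genes, Tie1, Emcn, Esam, Icam2, Cldn5 and Egfl7, were also highest there. The longer list of endothelial surface genes read below was mixed. Some were highest on this array, such as Flt1 (8.14 against 5.51 to 7.58), and others were not, such as Eng, which was lowest (6.13 against 6.89 to 8.71). The 7 measured markers of primitive red cells had a mean of 4.83 there and 3.99 to 4.43 on the other wide arrays, with 4 of 7 highest there. These 4 were Hba-x, Hbb-y and Hbb-bh1, already counted above, and Slc4a1 (4.27 against 3.72 to 4.02). For visceral endoderm of the yolk sac, the tissue that lies over the blood islands, 3 of 8 markers were highest (Afp, Ttr and Rbp4), with a mean of 8.46 against 5.04 to 8.36. None of 8 stem cell markers and none of 5 smooth muscle markers was highest there. The narrow arrays of the same group, replicates 1 and 3, read 5.32 and 5.33 for the white blood cell list, against 5.11 to 5.24 on the other narrow arrays. The part of these cells in the Hbb-y, Kdr and Tek readings was not tested.

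**Figure D4:**
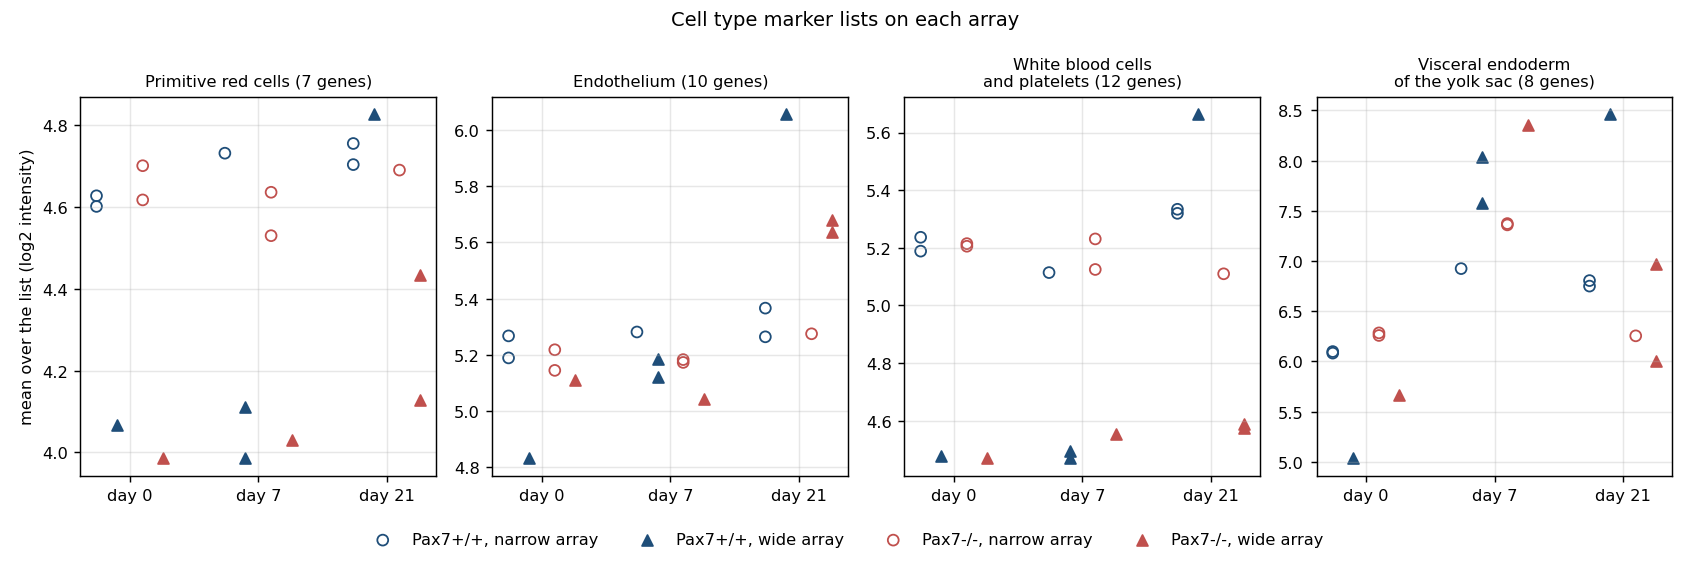
Mean log2 intensity of 4 marker lists (vertical axis, scaled separately in each panel) on every array by day, with blue for Pax7+/+ and red for Pax7-/-, open circles for narrow and filled triangles for wide arrays. The wide Pax7+/+ array of day 21 lies above the other wide arrays in the panels of primitive red cells, endothelium and white blood cells, and just above a day 7 array in that of visceral endoderm.

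Other genes of the same pathways were read from lists chosen with earlier results of these data known. In the list of endothelial surface and junction genes, 28 were measured, and from day 0 to day 21 in Pax7+/+ 4 rose and 1 fell, with a median of 0.21 log2 against 0.03 over all genes. These 5 of 28 stand beside 14.6% of all genes called in that comparison. The risers were Flt1, the decoy VEGF receptor (1.38 ± 0.28, adjusted p = 0.00297), Esam, a junction protein (1.01 ± 0.29, adjusted p = 0.0268), Ramp2, the adrenomedullin co-receptor (0.60 ± 0.16, adjusted p = 0.0178), and Adgrl4 (0.59 ± 0.17, adjusted p = 0.0262). Esam and Adgrl4 did not pass without Pax7+/+ day 21 replicate 2 (adjusted p = 0.176 and 0.178). Eng, the TGF-beta co-receptor endoglin, fell in Pax7+/+ (-0.91 ± 0.27, adjusted p = 0.0300) and in Pax7-/- (-1.01 ± 0.27, adjusted p = 0.0303), where it was the only 1 of the 28 to pass. Eng thus moved in the direction of Pecam1, not of Cdh5. S1pr1, a sphingosine 1-phosphate receptor, fell from day 0 to day 7 in Pax7+/+ (-0.71 ± 0.18, adjusted p = 0.0296).

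Of 16 endothelial transcription factor genes, 4 rose from day 0 to day 21 in Pax7+/+ and 4 in Pax7-/-, and 0 fell, against 14.6% and 8.97% of all genes called in either direction. Gata6, which is also a factor of primitive endoderm, led with 3.59 ± 0.27 log2 in Pax7+/+ (adjusted p = 2.39e-07) and 1.6 ± 0.28 in Pax7-/- (adjusted p = 0.00198). The difference between these changes was -1.99 ± 0.39 (adjusted p = 0.0148), and Gata6 was already higher in Pax7-/- at day 0 by 1.26 ± 0.27 (adjusted p = 0.0300). It had risen by day 7, by 3.17 ± 0.28 in Pax7+/+ (adjusted p = 4.53e-06) and 1.81 ± 0.27 in Pax7-/- (adjusted p = 9.57e-04). In Pax7+/+ Sox17, a factor of endoderm and of arteries, rose by 1.49 ± 0.31, the venous factor gene Nr2f2 by 1.14 ± 0.28 and Hey2, a Notch target of arteries, by 1.09 ± 0.29. Nr2f2 and Hey2 lost the call without replicate 2 of that group (adjusted p = 0.0814 and 0.0986). In Pax7-/- Foxc1 (0.64 ± 0.16), Tal2 (1.27 ± 0.31) and Hey1 (0.99 ± 0.26) passed. Sox7 was higher at day 7 than at day 0 in Pax7+/+ (2.30 ± 0.32, adjusted p = 3.70e-04) and then fell, with a difference of -1.46 ± 0.32 at day 21 against day 7 (adjusted p = 0.0130).

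Among 18 blood and haemangioblast transcription factor genes, Gata2, a factor of blood stem cells and also of trophoblast, rose from day 0 to day 7 in Pax7+/+ (1.49 ± 0.35, adjusted p = 0.0176). Its mean went from 4.66 to 5.10 log2 on narrow and from 5.21 to 7.32 log2 on wide arrays. Cbfb, the partner of Runx1, was higher in Pax7-/- at day 21 (0.64 ± 0.14, adjusted p = 0.0144), and was not called without Pax7+/+ day 21 replicate 2 (adjusted p = 0.0624). No other gene of that list passed in any of the 12 comparisons. In the list of definitive globins and haem synthesis, 9 of 18 genes were measured, and Alad, an early enzyme of the haem pathway, was higher at day 7 than at day 0 in Pax7+/+ (0.56 ± 0.11, adjusted p = 0.00615). Of 11 red cell membrane genes measured, Tfrc, the transferrin receptor of all dividing cells, fell from day 0 to day 21 in Pax7+/+ (-0.87 ± 0.18, adjusted p = 0.00311). The genes Hba-a1, Hba-a2, Hbb-bs, Hbb-bt and Alas2 are among those not analysed here, for want of a probe set that names 1 gene.

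In the list of VEGF and angiopoietin ligands and co-receptors, with 14 genes, Vegfa gave the clearest genotype difference. Vegfa is the ligand of Kdr. It read 7.84 (narrow) and 9.35 log2 (wide) in Pax7+/+ stem cells against 7.01 and 8.18 in Pax7-/- stem cells. The difference at day 0 was -0.95 ± 0.13 (adjusted p = 0.00196). From day 0 to day 7 Vegfa rose in Pax7-/- by 0.77 ± 0.13 (adjusted p = 0.00302), and this change differed between genotypes by 1.08 ± 0.19 (adjusted p = 0.0164). At day 21 it was again lower in Pax7-/- (-0.57 ± 0.14, adjusted p = 0.0232), a call that was lost without Pax7+/+ day 21 replicate 2 (adjusted p = 0.163). Its receptors gave no such difference, with Kdr at 0.30 ± 0.27 at day 0 (adjusted p = 0.732). The apelin genes Apln (0.72 ± 0.19) and Aplnr (0.82 ± 0.24), ligand and receptor of sprouting vessels, rose from day 0 to day 21 in Pax7-/-. The VEGF co-receptor gene Nrp2 fell by 0.90 ± 0.18 from day 0 to day 7 in Pax7+/+ and then rose by 0.71 ± 0.18 to day 21 (adjusted p = 0.0296). Nrp1, the other VEGF co-receptor gene, rose over the later step by 1.11 ± 0.31 (adjusted p = 0.0485). Pgf, a ligand of Flt1, rose from day 0 to day 21 in Pax7+/+ by 0.54 ± 0.16 (adjusted p = 0.0375). These 3 rises were not called without Pax7+/+ day 21 replicate 2 (adjusted p = 0.236, 0.320 and 0.251).

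The genes whose pattern over the 18 arrays was most like that of Cdh5, with each gene's set mean taken away, were Vnn1, Greb1, Ints6l, Prickle1 and Six5, with Pearson correlations of 0.97, 0.96, 0.95, 0.95 and 0.95. These are descriptions over arrays that share days and sets, and no endothelial gene of the lists was among the 5. For Hbb-bh1 no such list is given, since its group means spanned only 0.69 log2.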

How the data were processed

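Affymetrix arrays of 18 samples (6 groups of 3) were read from the deposited table of log2 intensities, 41345 probe sets, which the authors made with RMA, per the submitters' processing notes, which also name Partek. Versions, the order of steps and whether all arrays were summarised jointly are not given in the sources used here. Of the probe sets, 23521 named 1 gene, 1814 several and 16010 none. The probe set with the highest mean was kept per gene, which gave 22180 genes, 21994 of them matched to RefSeq (GRCm38.p6).

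limma 3.58.1 in R 4.3.3 (lmFit, contrasts, eBayes without trend) was fitted to all genes with 6 group means and the array set as a block (wide where an array's SD over probe sets exceeded 1.6 log2, 11 residual degrees of freedom). The threshold was 0.05 on p-values adjusted after Benjamini and Hochberg within each comparison. The 10 genes and all lists were chosen with earlier results of these data known. All 10 genes are named. From each pathway list up to 4 passing genes per comparison with the smallest adjusted p are named. The rule's genes of comparisons where none passed are left out. The cell type marker lists were read as levels, and most of their genes that passed, such as Cubn, Klf4 and Acta2, are not named in the results. Eng in Pax7+/+ was added after its value was seen. The code was tested on simulated data. Alternatives covered the set term, each set alone, quantile normalization, median centring, a filter at the 25th percentile, the mean of probe sets, a replicate block and each array left out. No gene was filtered out. The number of arrays limits the precision: the smallest exact permutation p of 3 arrays against 3 is 0.1. Figures used Python 3.11.15 and matplotlib 3.10.9.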

Additional observations from a re-analysis of the deposited data

How the results depend on the processing

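Of the alternative values for single genes, 3567 kept the side of the threshold, 52 newly passed and 35 no longer passed. Where at least 1 of the compared fits passed, 0 reversed direction. Where neither passed, direction was not compared and could change. For Kdr at day 21, Pax7-/- minus Pax7+/+ ran from -0.38 to 0.39 log2 over the fits that each left out 1 array. Counts of the 10 genes called moved by over 1.5 times under these alternatives. Without the set term, 0 were called from day 0 to day 21 in either genotype (against 2 and 2), with all-gene counts of 29 and 8 against 3240 and 1989, and all-gene genotype counts of 0 against 284, 139 and 1085. On wide arrays alone, a fit with 2 residual degrees of freedom and 1 array in most groups, 2 were called between genotypes at day 21, 3 and 3 from day 0 to day 7 in Pax7+/+ and Pax7-/-, 6 and 2 from day 7 to day 21, 6 from day 0 to day 21 in Pax7+/+, and 1 and 2 for the interactions over the later step and over the whole course. Smaller moves were 3 calls against 2 from day 0 to day 21, in Pax7+/+ after quantile normalization and after median centring (Hbb-y added in both), and in Pax7-/- on wide arrays alone (Hba-x added). On narrow arrays alone 1 was called from day 0 to day 21 in Pax7-/-. After quantile normalization 1 was called in the earlier step (Pecam1) and 1 in the later step (Cdh5), in each genotype. Leaving out 1 array gave 1 to 4 calls from day 0 to day 21 in Pax7+/+, 1 to 3 in Pax7-/-, and 0 to 1 in both steps of Pax7+/+ and from day 0 to day 7 in Pax7-/-. The share of all genes called after quantile normalization, after median centring and in these fits is not given here. Those counts are therefore not read as particular to the 10 genes. With replicate number as a block beside the set, the counts were again 2 and 2 from day 0 to day 21 and 0 in the other 10 comparisons. With group and set taken away, arrays of 1 day and 1 number correlated between genotypes at -0.22 to 0.23. Arrays of 1 day and unlike numbers reached -0.25 and 0.27. Replicate 1 was a narrow array in all 6 groups, so number and set overlap. Whether the numbers pair samples cannot be told from these values. The filter at the 25th percentile took the 3 globins out of the fit. The cause of the other shifts was not tested.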
